A study of Homo sapiens with 10 samples.

Results

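Chromatin accessibility was examined at the start sites of 8 genes of the DNA damage response: MDM2, PPM1D, CDKN1A, BTG2, GADD45A, GADD45B, PLK2 and BBC3. Their peaks were those overlapping a window of 2 kb to either side of 1 start site per gene on build hg19, and the windows held between 5 and 10 peaks of the 15992 to 24438 peaks in each library. The merged peaks of all libraries made 35505 regions on chromosomes 1 to 22 and X, which serve as the background. The rule used no measured value, although the genes were chosen with earlier results of these data known. The start sites stood on hg19 at chromosome 12 position 69201952 for MDM2, 17 at 58677544 for PPM1D, 6 at 36646459 for CDKN1A, 1 at 203274664 for BTG2, 1 at 68150883 for GADD45A and 19 at 2476123 for GADD45B, all on the plus strand. PLK2, on chromosome 5 at 57755949, and BBC3, on chromosome 19 at 47736023, lie on the minus strand.

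Cells with damaged DNA halt the cell cycle, repair the damage or enter apoptosis, and they switch on genes for each of these steps together with genes that end the response. The CCRF-CEM cell line is made up of leukemic T lymphoblasts, and several of these genes can be induced by other stress pathways as well. MDM2 and PPM1D act in feedback on the damage response, CDKN1A, BTG2, GADD45A and GADD45B restrain growth, PLK2 is a stress-induced kinase, and BBC3, also called PUMA, triggers apoptosis.

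The samples were SLFN11 knockout CCRF-CEM cells and the parental cells, which per the labels are wild-type and express SLFN11, a protein that acts on stressed replication forks. Each line received 100 nM camptothecin for 4 h, DMSO, or 100 nM prexasertib for 2, 4 or 6 h, which gives 10 libraries with 1 library per group. Camptothecin traps topoisomerase I on DNA, and prexasertib inhibits the checkpoint kinase CHK1. Whether the knockout line is a single clone is not stated in the labels used here. No group has a replicate, so no difference below was set against a spread between samples and no test was made. According to the series record, raw reads deposited for parental cells after 4 h of prexasertib are truncated. The T lymphoblast label was not checked against marker genes, because no hg19 annotation was used here. For the same reason the other genes of the pathway were not located, and exons and introns are not given.

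The readout was ATAC-seq, in which a transposase cuts open DNA. Summit height is the number of overlapping reads at a peak's highest point, the pileup, divided by the smallest background pileup of the same library. That background was highest in knockout cells after 2 h of prexasertib, lay between 1.59 and 1.99 in the other 4 knockout libraries, and between 1.33 and 1.63 in the parental libraries. Read depth itself is unknown, and the part of depth in the differences below was not tested. Log2 changes of height carry a 95% exact (Clopper-Pearson) binomial interval from the 2 pileups, which covers counting error only, since reads are not independent molecules. All distances are along the gene, negative before the start site.

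RefSeq promoter windows, from 250 bases before to 50 after a start, matched 7 of the 8 genes on build GRCh38.p14. MDM2 had 4 such windows, of which only the first listed was used. Positions were not carried between the builds, and a RefSeq start can differ from the start site used for the peak windows. The windows were searched on both strands for the CCAAT box, the GC box GGGCGG, the E-box CACGTG, the cyclic AMP response element TGACGTCA, the AP-1 element TGACTCA and the TATA box TATAAA. The 4 sequences here show how far the promoters differ. PPM1D had the highest summit of all members and libraries, and PLK2 had the lowest summits. CDKN1A had its highest summit well downstream of the start in most libraries. The BBC3 start site used for the peak windows had no peak over it in any library, and other starts of that gene were not examined. Capitals mark the motifs, with each window read 5′ to 3′ along the gene.
PPM1D, chr17:60599943-60600242, plus strand: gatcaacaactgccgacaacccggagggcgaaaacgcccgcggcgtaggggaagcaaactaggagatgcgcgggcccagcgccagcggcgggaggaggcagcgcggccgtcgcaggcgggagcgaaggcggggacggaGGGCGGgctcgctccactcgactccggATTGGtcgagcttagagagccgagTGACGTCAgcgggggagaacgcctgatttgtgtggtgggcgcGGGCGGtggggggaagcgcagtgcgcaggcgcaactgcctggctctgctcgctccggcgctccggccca
CDKN1A, chr6:36678464-36678763, plus strand: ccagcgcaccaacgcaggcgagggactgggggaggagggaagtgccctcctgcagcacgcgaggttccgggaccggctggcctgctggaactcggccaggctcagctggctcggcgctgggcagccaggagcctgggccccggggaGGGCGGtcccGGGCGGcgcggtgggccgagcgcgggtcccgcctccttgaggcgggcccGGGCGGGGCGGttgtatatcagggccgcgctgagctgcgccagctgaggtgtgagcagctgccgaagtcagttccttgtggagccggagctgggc
PLK2, chr5:58460037-58460336, minus strand: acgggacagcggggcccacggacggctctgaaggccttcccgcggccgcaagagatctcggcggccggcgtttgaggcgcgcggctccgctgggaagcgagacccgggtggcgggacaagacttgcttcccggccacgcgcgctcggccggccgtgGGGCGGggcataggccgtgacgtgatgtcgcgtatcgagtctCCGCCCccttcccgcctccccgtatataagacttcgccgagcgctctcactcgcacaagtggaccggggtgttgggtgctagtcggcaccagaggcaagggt
BBC3, chr19:47232618-47232917, minus strand: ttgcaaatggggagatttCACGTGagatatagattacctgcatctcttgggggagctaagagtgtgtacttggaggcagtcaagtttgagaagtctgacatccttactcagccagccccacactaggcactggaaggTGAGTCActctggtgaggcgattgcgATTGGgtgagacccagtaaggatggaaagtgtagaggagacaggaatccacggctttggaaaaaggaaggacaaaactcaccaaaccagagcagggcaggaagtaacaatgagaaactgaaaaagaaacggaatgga

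All matched promoters but BBC3 held 27 to 40 CpG sites in the window, and BBC3 held 5. The median over the 35116 RefSeq windows was 14. CCAAT was found in 5 of the 7 windows, against 34.6% of all windows, and GGGCGG in 5 of the 7, against 45%. The cyclic AMP response element was found in the PPM1D window alone and in 1.85% of all windows. The E-box was found in the GADD45B and BBC3 windows and in 7.26% of all, the AP-1 element in BBC3 alone and in 4.95% of all. The letters TATAAA were found in GADD45B alone and in 11.5% of all. Only exact letters were counted, so a near form of the TATA box such as TATATAA in the PLK2 window was not. In CDKN1A the last 2 GGGCGG matches overlap by 1 base. A match describes letters and is no evidence of binding.

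Peaks were called in all 10 libraries at 5 of the 8 genes, GADD45A, GADD45B, BTG2, MDM2 and PPM1D, and the number is the same without the parental 4 h prexasertib library. Of all merged regions 32.7% were called in all 10, although each region is there only because some library called it. CDKN1A and PLK2 were called in 9 libraries, all but parental cells after 2 h of prexasertib, a pattern shared by 643 regions (1.81%). BBC3 was called in 4 libraries, knockout cells with DMSO and at the 3 prexasertib times, a pattern shared by 97 regions (0.273%). In numbers of genes, knockout cells had 7 called with camptothecin, 8 with DMSO and 8 at each prexasertib time, where 52.4%, 56.2%, 67.0%, 59.6% and 64.7% of merged regions were called. Parental cells had 7 called with camptothecin, 7 with DMSO and 5, 7 and 7 after 2, 4 and 6 h of prexasertib, where the shares of regions were 60.4%, 44.2%, 43.5%, 49.5% and 64.3%.

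**Figure D1:**
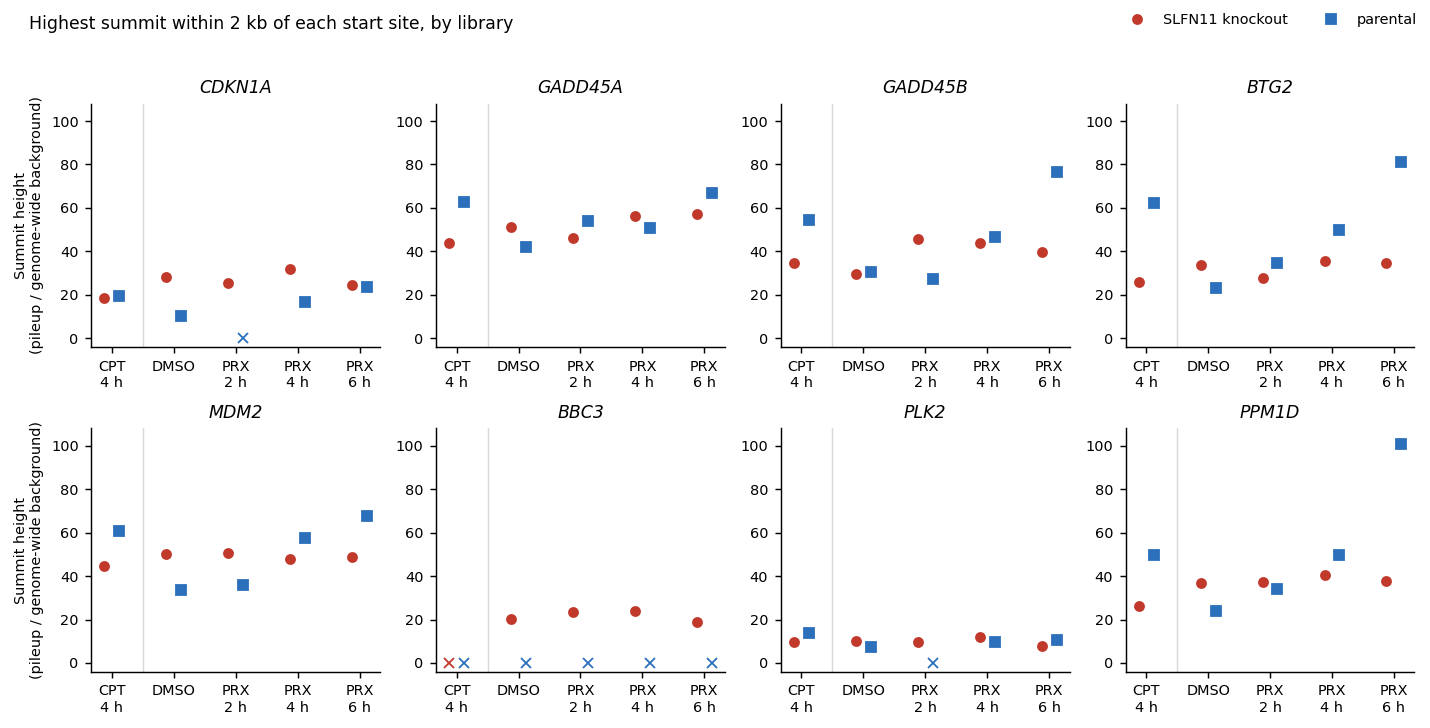
Summit height (pileup over the genome-wide background, linear axis) of the highest summit within 2 kb of each start site, 1 point per library, for SLFN11 knockout cells (red circles) and parental cells (blue squares) with camptothecin (CPT), DMSO and prexasertib (PRX). Crosses on the base line mark libraries with no called peak, not a height of 0. The knockout points of PPM1D and BTG2 stay between 25.9 and 40.5, while the parental points reach 101 and 81.3 after 6 h of prexasertib.

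Of the feedback genes, PPM1D encodes the WIP1 phosphatase, which reverses phosphorylations set by the damage kinases. Its summit lay between -72 and 7 bases from the start in all 10 libraries. In knockout cells its height was 26.4 with camptothecin, 37.0 with DMSO, and 37.1, 40.5 and 37.6 after 2, 4 and 6 h of prexasertib. In parental cells the height was 49.8 with camptothecin, 23.9 with DMSO, and 33.8, 49.8 and 101 after 2, 4 and 6 h of prexasertib. The parental series thus ran upward with time, and its 6 h value was the highest of any member in any library. The knockout log2 change from DMSO after 6 h of prexasertib was 0.02 (-0.49 to 0.54). The parental change was 2.08 (1.57 to 2.63), a 4.23-fold height, and it exceeded the change of 99.0% of the 14256 regions measured in both libraries. With camptothecin the log2 changes were -0.48 (-1.07 to 0.10) in knockout and 1.06 (0.48 to 1.66) in parental cells.

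MDM2 encodes a ubiquitin ligase that marks other proteins for degradation. The called peak crossed the start in all 10 libraries, with the summit between -126 and -64 bases from it. The knockout height was 44.8 with camptothecin, 50.2 with DMSO, and 50.5, 48.1 and 48.6 after 2, 4 and 6 h of prexasertib. The parental height was 60.9 with camptothecin, 33.7 with DMSO, and 35.9, 57.3 and 67.6 after 2, 4 and 6 h of prexasertib. The knockout values thus lay within a narrow range, and the parental values fell into a low pair, DMSO and 2 h, and 3 higher ones. After 6 h of prexasertib the parental log2 change was 1.00 (0.52 to 1.504), close to the middle of the regions, of which 53.1% changed less. The peak was 1033 to 1328 bases wide over all 10 libraries, a ratio of 1.29 and the most even width of the 5 genes called everywhere.

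Among the growth-restraining genes, BTG2, which encodes an antiproliferative cofactor of mRNA deadenylation, was nearest to PPM1D. In knockout cells its height was 25.9 with camptothecin, 33.9 with DMSO, and 27.6, 35.7 and 34.6 after 2, 4 and 6 h of prexasertib. In parental cells it was 62.3 with camptothecin, 23.3 with DMSO, and 34.5, 49.8 and 81.3 after 2, 4 and 6 h of prexasertib. In knockout cells camptothecin and 2 h of prexasertib were below DMSO, while all 4 treated parental libraries were above the parental DMSO library. The knockout log2 changes were -0.39 (-0.99 to 0.21) with camptothecin and 0.03 (-0.50 to 0.57) after 6 h of prexasertib, both with intervals that include 0. The parental log2 changes were 1.42 (0.86 to 2.01) with camptothecin and 1.81 (1.27 to 2.37) after 6 h of prexasertib, above those of 92.5% and 95.8% of regions.

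The root mean square difference of log2 height over the 10 libraries, each gene centred on its own mean, measured likeness among the 5 genes called everywhere. BTG2 and PPM1D were the closest pair at 0.19, then GADD45A and MDM2 at 0.22, and GADD45B and MDM2 at 0.23, and the most unlike pair, GADD45A and PPM1D, differed by 0.39. These values carry no test, and the libraries behind them are the same for every pair.

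GADD45A encodes a small stress protein that binds PCNA and cyclin-dependent kinase complexes. Its summit, between -85 and -12 bases from the start, was already high in both lines with DMSO. In knockout cells its height was 43.7 with camptothecin, 51.4 with DMSO, and 46.2, 56.2 and 57.2 after 2, 4 and 6 h of prexasertib. In parental cells it was 62.9 with camptothecin, 42.2 with DMSO, and 54.2, 50.6 and 66.9 after 2, 4 and 6 h of prexasertib. Its highest value over all 10 libraries was 1.58 times its lowest, the smallest such ratio of the 5 genes called everywhere, and 2 parental changes, 0.58 (0.11 to 1.05) with camptothecin and 0.66 (0.21 to 1.13) after 6 h of prexasertib, had intervals above 0. Both were below the median change of all regions. When the local background was the divisor, the parental camptothecin change was -0.05 and the 4 h prexasertib change was -0.23, so the direction of these depends on the scale.

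The width of the GADD45A peak varied more than its height. The upstream edge stayed within -309 to -247 bases of the start in all 10 libraries, and the downstream edge moved. In knockout cells the peak measured 1000 bases with camptothecin, 820 with DMSO, and 1427, 1573 and 1576 after 2, 4 and 6 h of prexasertib. With DMSO a separate knockout peak of 206 bases stood from 1081 to 1286 bases after the start, inside the stretch that the main peak reached at 4 h of prexasertib. In parental cells the peak measured 951 bases with camptothecin, 534 with DMSO, and 1374, 1372 and 841 after 2, 4 and 6 h of prexasertib. The parental DMSO peak was the narrowest of the 10, and the widest parental peaks came at 2 and 4 h, not at 6 h.

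GADD45B encodes a related stress protein that is also induced through NF-kB. It was the member whose knockout values differed most from DMSO after prexasertib. The knockout height was 34.5 with camptothecin, 29.5 with DMSO, and 45.7, 43.8 and 39.6 after 2, 4 and 6 h of prexasertib. The parental height was 54.6 with camptothecin, 30.6 with DMSO, and 27.1, 46.8 and 76.7 after 2, 4 and 6 h of prexasertib. With DMSO the lines lay close together, at 2 h only the knockout value stood above its DMSO value, and at 6 h the parental value was the higher. The knockout log2 changes were 0.63 (0.12 to 1.17) at 2 h and 0.57 (0.03 to 1.12) at 4 h, larger than those of 94.9% and 93.9% of regions, and no other knockout change of a member had an interval apart from 0. The parental changes were 0.84 (0.31 to 1.38) with camptothecin and 1.33 (0.84 to 1.83) after 6 h of prexasertib. Over the local background the parental change was -0.24 with camptothecin and -0.21 after 4 h of prexasertib, against 0.20 after 6 h, so the local scale turned the camptothecin and 4 h directions and not that at 6 h. A small second peak lay between -1446 and -951 bases from the start in 3 libraries, knockout cells after 4 h of prexasertib and parental cells with camptothecin and after 6 h of prexasertib, with a −log10 q of 3.14, 3.24 and 3.70.

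**Figure D2:**
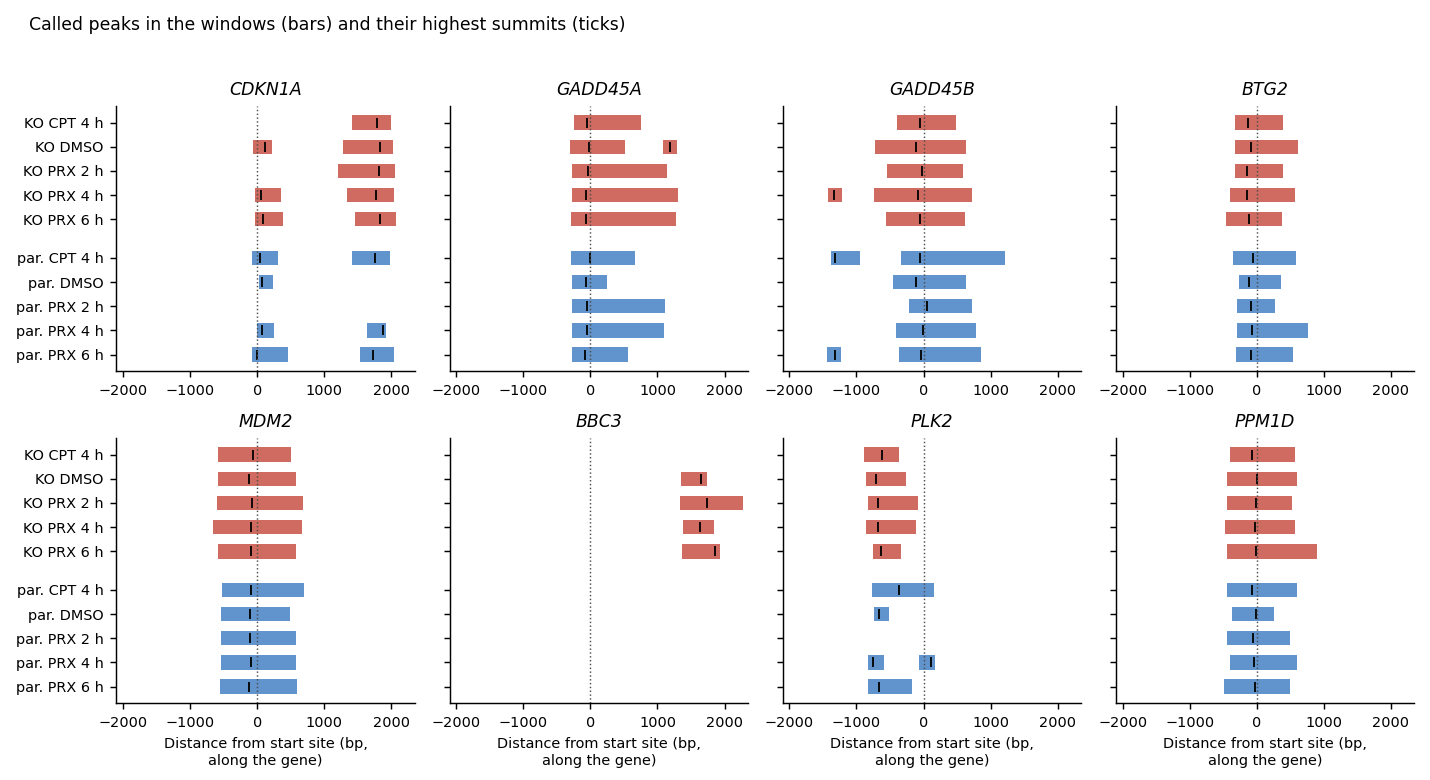
Extent of every called peak in the windows (bars) and the highest summit of each (black ticks), by distance from the start site in bases along the gene, with the knockout libraries (KO, red) above the parental ones (par., blue). The GADD45A peak ends 1106 bases after the start in parental cells after 2 h of prexasertib and 252 bases after it with DMSO, CDKN1A has separate peaks at the start and downstream, and BBC3 has bars in 4 knockout libraries and no parental one.

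CDKN1A encodes p21, an inhibitor of cyclin-dependent kinases and a classic gene of the damage response. Accessible DNA in its window lay in 2 places, a weak peak at the start and another with its summit 1722 to 1876 bases downstream. In knockout cells the downstream height was 18.4 with camptothecin, 28.2 with DMSO, and 25.2, 31.9 and 24.6 after 2, 4 and 6 h of prexasertib. In parental cells it was 19.4 with camptothecin, uncalled with DMSO and after 2 h of prexasertib, and 16.6 and 23.6 after 4 and 6 h. The downstream peak was therefore called in all 5 knockout libraries and in 3 of the 5 parental libraries, all of them treated. The 2 parental libraries without it, DMSO and 2 h of prexasertib, also had the lowest shares of called regions, 44.2% and 43.5%. How many regions share this pattern of calls was not counted. The peak at the start was called in knockout cells with DMSO at 16.9 and after 4 and 6 h of prexasertib at 15.1 and 14.0, and in neither of the other 2 knockout libraries. In parental cells its height was 18.7 with camptothecin, 10.4 with DMSO, and 13.6 and 15.1 after 4 and 6 h of prexasertib. Changes of the highest CDKN1A summit from parental DMSO, such as 1.18 (0.31 to 2.11) at 6 h, therefore compare different peaks, and the peak at the start alone was at 15.1 after 6 h against 10.4 with DMSO.

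PLK2 encodes a polo-like kinase. Its highest summit lay between -761 and -369 bases from the start and was the lowest of the members called in most libraries. The knockout height was 9.77 with camptothecin, 10.03 with DMSO, and 9.52, 11.9 and 8.02 after 2, 4 and 6 h of prexasertib. The parental height was 13.8 with camptothecin, 7.35 with DMSO, uncalled after 2 h of prexasertib, and 9.81 and 10.5 after 4 and 6 h. None of the PLK2 changes had an interval apart from 0, and the largest was 0.91 (-0.19 to 2.08) in parental cells with camptothecin. The parental peak was 922 bases wide with camptothecin, where it reached 150 bases past the start, against 231 bases with DMSO.

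BBC3 encodes a BH3-only protein. Its called peaks lay 1343 to 2271 bases downstream of the start, where the furthest end, after 2 h of prexasertib, ran past the window's edge. No library had a peak at the start site used here. Whether the gene has other start sites, at these peaks or elsewhere, was not examined. The knockout heights were 20.1 with DMSO and 23.3, 23.8 and 19.1 after 2, 4 and 6 h of prexasertib, with no peak called with camptothecin. The −log10 q of these peaks was 2.88, 4.91, 4.99 and 3.81, near the lowest value of about 2 that any list holds. A region without a call has no value in these lists, so no level can be given for the parental libraries. The 4 treated parental libraries all had a lower background pileup than any knockout library. With DMSO it was 1.63 in parental cells and 1.59 in knockout cells, where the peak was called. In knockout cells with camptothecin, where it was not called, the background was 1.74. The part of the background in these calls was not tested.

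Outside the windows, between 2 and 10 kb from the start sites, peaks were found near BBC3 and CDKN1A alone. A strong peak began 5303 to 6135 bases downstream of the BBC3 start in all 10 libraries of a gene for which RefSeq lists a length of 12037 bases. In knockout cells its height was 33.9 with camptothecin, 42.0 with DMSO, and 48.6, 50.8 and 38.6 after 2, 4 and 6 h of prexasertib. In parental cells it was 54.6 with camptothecin, 30.0 with DMSO, and 27.8, 58.1 and 76.7 after 2, 4 and 6 h of prexasertib. The knockout log2 changes were -0.31 (-0.84 to 0.22) with camptothecin and -0.12 (-0.61 to 0.37) after 6 h of prexasertib, and the parental ones were 0.87 (0.33 to 1.41) and 1.36 (0.86 to 1.87). The region medians in the same order were -0.20 and 0.02 in knockout cells and 0.78 and 0.96 in parental cells. Its width was at most 749 bases in the knockout libraries, against 1176 bases with camptothecin, 515 with DMSO, and 514, 1350 and 1411 after 2, 4 and 6 h of prexasertib in parental cells. The other such peaks were a CDKN1A peak 4088 bases downstream in knockout cells with camptothecin and a BBC3 peak from -8607 to -8393 bases in parental cells after 6 h of prexasertib. The downstream CDKN1A peaks ended 1914 to 2077 bases after the start, near or past the window's edge.

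**Figure D3:**
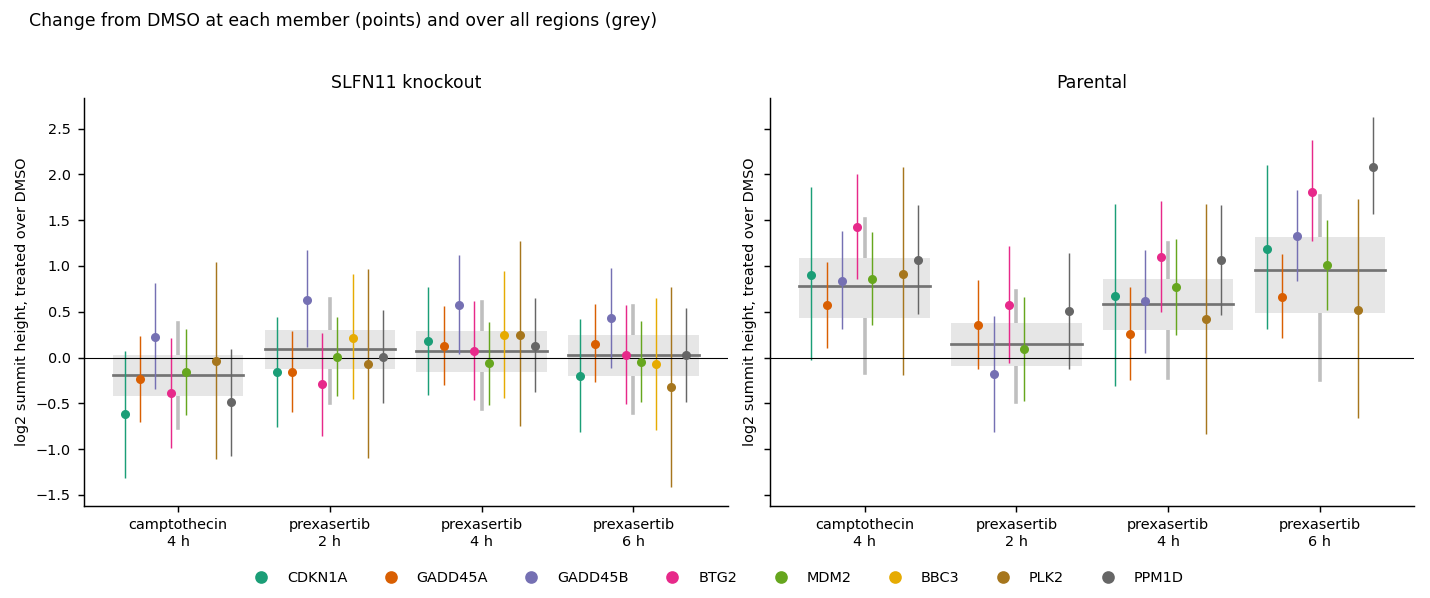
Log2 summit height of the treated over the DMSO library at each gene called in both (coloured points, with 95% counting intervals), in knockout cells (left) and parental cells (right). Grey boxes, lines and bars show the quartiles, median and central 90% of all regions called in both libraries. The knockout points after 6 h of prexasertib run from -0.32 to 0.43 around a region median of 0.02, and the parental points from 0.51 to 2.08 around 0.96.

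Over the members called in both libraries, most median changes lay near those of the whole region set. In parental cells the medians stood further above the region medians after 2 h of prexasertib, at 0.36 beside 0.15, and after 6 h, at 1.18 beside 0.96. The 6 h value is that of CDKN1A, where different peaks were compared, and with a 1 kb window the median was 1.00. Over the local background the 6 h medians were 0.48 for members and 0.46 for regions. The 2 h median covers 5 genes only, since CDKN1A and PLK2, called with DMSO, were not called at 2 h. In knockout cells no member reached a 2-fold change in either direction. Among regions, 0.487%, 0.371% and 0.3% were at least 2-fold higher after 2, 4 and 6 h of prexasertib and 0.13% with camptothecin, while 0.255%, 0.51%, 0.548% and 1.31% were at least 2-fold lower in the same order. After 2 h of prexasertib 1 gene, GADD45B, was at least 1.5-fold higher, where 6.55% of regions were. The members' median log2 changes were -0.03, 0.15 and -0.01 after 2, 4 and 6 h of prexasertib, beside region medians of 0.09, 0.07 and 0.02. With camptothecin the median was -0.24 beside -0.20 over regions, and 6 of the 7 genes were lower than with DMSO, where 27.3% of regions were higher. GADD45B was the exception. Before division by the background the knockout prexasertib medians were 0.36, 0.37 and 0.31 beside region medians of 0.49, 0.28 and 0.35. The background ratios to DMSO were 1.32, 1.16 and 1.25.

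In parental cells after 6 h of prexasertib, 5 of the 7 genes called in both libraries were at least 2-fold higher than with DMSO, where 47.3% of regions were, and the median log2 change was 1.18 beside 0.96 over regions. Among these genes is CDKN1A, for which the downstream peak was set against the DMSO peak at the start, and with a 1 kb window 4 of 7 were at least 2-fold higher. After 4 h, 2 of 7 were at least 2-fold higher, where 15.2% of regions were, with medians of 0.67 and 0.59. After 2 h, none of 5 was, where 0.861% of regions were, with medians of 0.36 and 0.15. With camptothecin, 2 of 7 genes were at least 2-fold higher, where 31.5% of regions were, with medians of 0.90 and 0.78. At least 1.5-fold higher were 6 of 7 genes with camptothecin and 5 of 7 after 4 h of prexasertib, where 66.3% and 50.2% of regions were. CDKN1A, again with different peaks compared, is in both of these counts. Its value was also the median with camptothecin and after 4 and 6 h of prexasertib. Without CDKN1A these medians were 0.88, 0.69 and 1.17, and with the 1 kb window 0.85, 0.61 and 1.00. Over the local background no member was 2-fold higher in any of the 3 comparisons, PPM1D after 6 h of prexasertib was at 0.78, and the medians were 0.23 with camptothecin and 0.18 and 0.48 after 4 and 6 h of prexasertib, beside 0.33, 0.22 and 0.46 over regions. The share of regions 2-fold higher on that scale was not counted. The 4 parental comparisons share 1 DMSO library, as do the 4 knockout ones, so the directions within a line are not independent.

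Peak width was compared in the same way. In knockout cells 1 of 7 was wider with camptothecin, and 5, 7 and 4 of 8 after 2, 4 and 6 h of prexasertib, where the shares of regions were 45.2%, 73.2%, 62.0% and 67.4%. The knockout median log2 width changes were -0.16, 0.17, 0.16 and -0.07, beside -0.03, 0.18, 0.09 and 0.13 over regions. In parental cells 3 of 5 genes were wider after 2 h of prexasertib, where 50.2% of regions were, with a median of 0.10. In the other conditions 7 of 7 genes were wider with camptothecin, 7 of 7 after 4 h and 7 of 7 after 6 h of prexasertib, where 73.5%, 61.5% and 73.3% of regions were wider. The parental medians there were 0.75, 0.38 and 0.66, beside 0.22, 0.09 and 0.23 over regions. At CDKN1A the widest parental peak with camptothecin and after 4 h was the downstream one, set against the DMSO peak at the start. The 4 h median was the CDKN1A value itself. With the 1 kb window the 4 h median was 0.26, and those with camptothecin and after 6 h stayed at 0.75 and 0.66. Of the parental genes at 6 h, PLK2 and CDKN1A had the largest width changes, at 1.504 and 1.35, both from DMSO peaks of at most 231 bases.

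**Figure D4:**
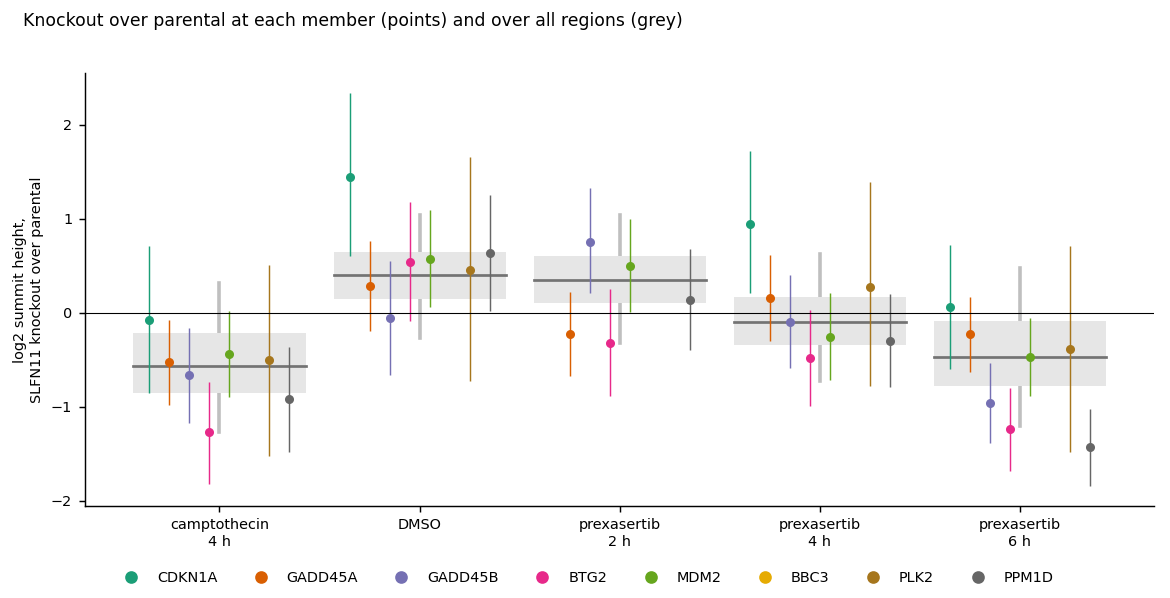
Log2 summit height of SLFN11 knockout over parental cells in each condition, at each gene called in both (coloured points, with 95% counting intervals), with the quartiles, median and central 90% of all regions in grey. The CDKN1A point stands at 1.44 with DMSO, and those of PPM1D, BTG2 and GADD45B lie between -1.43 and -0.95 after 6 h of prexasertib.

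The genotypes were then compared within each condition. With DMSO, 6 of 7 genes were higher in knockout cells, where 84.9% of regions were, and the median log2 ratio of knockout over parental was 0.54 beside 0.40 over regions. CDKN1A, at 1.44 (0.61 to 2.34), exceeded 99.4% of regions and alone was at least 2-fold higher, where 6.21% of regions were, and here the knockout downstream peak was set against the parental peak at the start. After 6 h of prexasertib the median was -0.47 beside -0.47 over regions, but -0.71 over the other 6 genes without CDKN1A. It was likewise -0.71 over the 6 genes with a −log10 q of at least 10, a limit for which no region median is given. At 6 h, 2 of 7 genes were at least 2-fold lower in knockout cells, where 11.9% of regions were. These were PPM1D at -1.43 (-1.84 to -1.02) and BTG2 at -1.23 (-1.68 to -0.80), lower ratios than those of all but 1.66% and 4.32% of regions. With camptothecin all 7 genes were lower in knockout cells, where 14.3% of regions were higher, and the median was -0.53 beside -0.57. Of these only BTG2 was at least 2-fold lower, at -1.27 (-1.82 to -0.74), where 15.8% of regions were.

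At the earlier prexasertib times the order of the genotypes was mixed. At 2 h the median over the 5 genes called in both was 0.13 beside 0.35 over regions, with GADD45B higher in knockout cells at 0.76 (0.21 to 1.33). At 4 h it was -0.10 beside -0.09, and CDKN1A, with the downstream peak in both lines, was at 0.94 (0.21 to 1.72), above 98.8% of regions. The direction of both medians depended on the scale: over the local background they were -0.08 and 0.06, and before division by the background 0.64 and 0.39, where the knockout libraries had 1.42 and 1.40 times the parental background. The change from DMSO was smaller in knockout than in parental cells for 7 of 7 genes with camptothecin and after 4 and 6 h of prexasertib, where 93.7%, 84.2% and 90.4% of regions had the smaller change in knockout cells. The median differences were -1.02, -0.50 and -1.05, beside -1.02, -0.50 and -0.92 over regions. At 2 h it was smaller for 4 of 5 genes, where 52.6% of regions were, with medians of -0.50 and -0.03. With 1 library per group the difference between genotypes was not tested.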

How the data were processed

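Each library came with 1 deposited narrowPeak list on build hg19. Trimming used Trim Galore 0.6.2 and Trimmomatic 0.39, alignment BWA 0.7.17, handling of alignments SAMtools 1.8 and Picard 2.9.2, and peaks MACS2 2.1.2, as listed per the submitters' processing notes. Their parameters, read shifting and duplicate handling are not given in the sources used here. Column values were used as deposited: a fold, the ratio of a summit to its local background, a −log10 p-value and a −log10 q-value. The deposited score, 10 times the −log10 q-value, was not used. Read depth is unknown, and heights were divided by the background pileup in its place.

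The whole pileup and background behind each summit were solved from the deposited fold and −log10 p-value within 0.001, which succeeded for 99.7% to 99.8% of summits. A gene was called where a peak overlapped its window. Pileup recovery and the finding of doubled region heights were tested on altered values of the parental DMSO list, and the interval on simulated counts. The window and width steps were not tested in this way. The 8 genes are named with all their values; genes, lists and measures were chosen with earlier results of these data known. Strands came from RefSeq, for GADD45A from general knowledge. Alternatives were a 1 kb window, a −log10 q of at least 10, both other scales and a 1.5-fold threshold; leaving out CDKN1A or the parental 4 h list was added after seeing the data. Python 3.11.15, NumPy 2.4.6, pandas 2.3.3 and SciPy 1.17.1 were used.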

Additional observations from a re-analysis of the deposited data

Results flagged for a closer look

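The members' median log2 height change from DMSO had opposite signs in the 2 lines under 3 treatments. With camptothecin it was -0.24 in knockout and 0.90 in parental cells, after 6 h of prexasertib -0.0104 in knockout and 1.18 in parental cells, and after 2 h of prexasertib -0.0347 in knockout and 0.36 in parental cells. Each line has 1 library per treatment and 1 DMSO library, and the difference was not tested. The knockout medians at 2 and 6 h of prexasertib lie close to 0 and become 0.36 and 0.31 before division by the background. Only the camptothecin contrast thus keeps opposite signs on all 3 scales. Over the local background it was -0.05 in knockout and 0.23 in parental cells, and before division -0.11 and 0.72. All regions showed the same camptothecin contrast, with median height changes of -0.20 in knockout and 0.78 in parental cells. Over the local background the region medians were -0.07 and 0.33, and before division -0.07 and 0.61.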

How the results depend on the processing

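No paired analysis was possible because each group has 1 library. Medians near 0, those of knockout cells after 2 and 6 h of prexasertib and of knockout over parental cells at 2 and 4 h, changed sign with the scale, and the cause was not tested. Over the local background the parental median log2 height changes were 0.23 with camptothecin and 0.48 after 6 h of prexasertib, beside region medians of 0.33 and 0.46, and 0 of 7 genes were at least 2-fold higher with camptothecin and after 4 or 6 h of prexasertib. Before division by the background 1 of 7 was with camptothecin and 0 of 7 after 4 h of prexasertib, and 1 of 8 in knockout cells after 2 h. The shares of regions past 2-fold were not counted on either of these scales, so these numbers have no background beside them. With a 1.5-fold threshold the numbers were 6 of 7 with camptothecin and 5 of 7 after 4 h of prexasertib in parental cells, and 1 of 8 in knockout cells after 2 h. With a −log10 q of at least 10 the parental 4 h median width change was 0.69 over 5 genes, and with the 1 kb window 0.26 over 7, in place of 0.38. With the 1 kb window 4 of 7 genes in place of 5 were at least 2-fold higher in parental cells after 6 h, the knockout 6 h median was 0.02 in place of -0.01, and knockout libraries had 6 or 7 genes called. Without CDKN1A the median of knockout over parental cells was -0.71 in place of -0.47 at 6 h and -0.18 in place of -0.10 at 4 h. A −log10 q of at least 10 gave -0.71 and -0.25 there. Leaving out 1 library of a group leaves none, so no such range exists. PLK2 pileups of 12 to 22 reads limit the precision of its changes.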

Other observations

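The rank of a member among the regions of its own library does not depend on any division between libraries. In knockout cells PPM1D stood above 76.3% of called regions with camptothecin, 85.7% with DMSO, and 85.5%, 86.4% and 86.6% after 2, 4 and 6 h of prexasertib. In parental cells PPM1D stood above 85.7% with camptothecin, 75.8% with DMSO, and 85.2%, 88.6% and 98.2% after 2, 4 and 6 h of prexasertib. In the same cells GADD45A, whose height was greater after 6 h of prexasertib than with DMSO, ranked lower, above 90.2% of regions after 6 h against 95.5% with DMSO, in lists of 22834 and 15697 called regions. Lists of different lengths make these ranks a description only.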
